A study of Homo sapiens with 12 samples.

Results

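The 60 genes described here lie on the long arm of chromosome 9 (9q) and were chosen by their transcript levels, which were lower as a region in MEC1 cells with high *UGT2B17*. They were taken from the deposited tables by gene symbol, 60 of the 23533 genes listed in either table, and run from *SMC5* at chr9:70258978-70354873 to *EHMT1* at chr9:137618992-137870016 on GRCh38, the build of hg38. The MEC1 comparison itself chose them, so MEC1 values are given as a description. A member called lower or higher in MEC1 passed the adjusted *P* threshold in the same comparison that chose it. Such MEC1 calls were largely fixed by the choice, so they describe the members and are not independent evidence about them. The JVM2 values are from a comparison that the choice did not use. Both MEC1 and JVM2 are immortal cell lines grown from human neoplastic B cells, and total RNA of 4 populations was sequenced in 3 biological replicates each, 12 libraries in all. MEC1-CTRL carried an shRNA that stably represses *UGT2B17*, a UDP-glucuronosyltransferase, and was kept in puromycin, whereas MEC1-2B17 carried the *UGT2B17* coding sequence in pcDNA6 and was kept in blasticidin. JVM2-CTRL carried empty pcDNA6 and JVM2-2B17 the same vector with *UGT2B17*, both under blasticidin. In MEC1 the arms thus differ in the vector and the selecting drug as well as in *UGT2B17*, and their parts cannot be told apart, and each arm is a stably selected population.

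Genes that share a chromosome arm usually have unrelated roles, and each is transcribed from a promoter of its own. What they have in common is the DNA molecule, so that loss or gain of an arm in a tumour cell alters the dose of all of its genes at once. The long arm of chromosome 9 is known in leukaemia for *ABL1*, which the Philadelphia translocation joins to *BCR*, and for the *SET* and *NUP214* fusions, and in solid tumours for the suppressors *PTCH1* and *TSC1*. The number of copies of chromosome 9 in each population was not analysed here.

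The promoters of 4 members are printed below as examples of the sequences upstream of these genes. They belong to the member with the lowest fold change in MEC1 (*KLF9*), the highest (*NANS*), the one nearest the members' median (*NUP188*) and the one nearest 0 (*SPTAN1*). Each is the 250 bases before the gene's start in RefSeq on GRCh38.p14, 5′ to 3′ on the gene's own strand, at chr9:70414658-70414907 (minus), chr9:98056482-98056731 (plus), chr9:128947449-128947698 (plus) and chr9:128552337-128552586 (plus). Capitals mark matches on either strand to one of several short motifs. These are the GC box with the letters GGGCGG, the CCAAT box with the letters of its name, the TATA box with the letters TATAAA, the cAMP response element with the letters TGACGTCA, and the E-box with the letters CACGTG.
KLF9: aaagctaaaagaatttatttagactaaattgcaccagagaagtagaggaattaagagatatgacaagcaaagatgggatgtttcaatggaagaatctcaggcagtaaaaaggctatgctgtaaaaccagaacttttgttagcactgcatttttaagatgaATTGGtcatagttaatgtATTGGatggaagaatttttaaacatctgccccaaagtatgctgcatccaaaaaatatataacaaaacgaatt
NANS: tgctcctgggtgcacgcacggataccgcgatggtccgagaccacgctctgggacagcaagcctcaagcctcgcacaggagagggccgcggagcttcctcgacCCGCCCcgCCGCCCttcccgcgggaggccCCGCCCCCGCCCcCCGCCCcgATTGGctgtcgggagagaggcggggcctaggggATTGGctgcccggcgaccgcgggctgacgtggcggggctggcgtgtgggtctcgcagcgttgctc
NUP188: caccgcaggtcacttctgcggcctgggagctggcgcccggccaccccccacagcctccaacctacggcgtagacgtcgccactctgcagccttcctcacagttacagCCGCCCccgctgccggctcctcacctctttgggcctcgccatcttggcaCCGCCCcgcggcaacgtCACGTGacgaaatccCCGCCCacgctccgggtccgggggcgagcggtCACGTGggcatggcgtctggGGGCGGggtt
SPTAN1: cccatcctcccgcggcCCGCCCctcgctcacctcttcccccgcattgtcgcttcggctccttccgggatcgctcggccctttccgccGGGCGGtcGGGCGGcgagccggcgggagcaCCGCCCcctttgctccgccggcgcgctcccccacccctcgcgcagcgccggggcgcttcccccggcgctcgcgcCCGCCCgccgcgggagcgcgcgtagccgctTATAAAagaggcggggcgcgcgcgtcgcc
The *KLF9* window was AT-rich, with 32.4% G and C, no GC box and 2 CCAAT boxes. The other windows held 71.2% to 79.2% G and C, with 5 GC boxes and 2 CCAAT boxes for *NANS*, 4 GC boxes and 2 E-boxes for *NUP188*, and 5 GC boxes and 1 TATA box for *SPTAN1*. RefSeq held 100 promoters for 54 of the 60 members, and 60% of them had a GC box, against 42.64% of all 35116 promoters of that length. CCAAT boxes were found in 32.0% against 32.01%, TATA boxes in 6.0% against 10.72%, E-boxes in 9.0% against 6.345% and cAMP response elements in 1.0% against 1.646%. A match is a run of letters only, and *PSMB7*, *GNAQ*, *GLE1*, *CEP78*, *TOR1A* and *URM1* had no entry.

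The MEC1 libraries held 31762649 to 37744991 counts and the JVM2 libraries 8809179 to 11231330. Variation between replicates in the fit (biological coefficient of variation) was 4.22% in MEC1 and 6.92% in JVM2. A member was measured more precisely in MEC1 (median SE of the log2 fold change 0.041) than in JVM2 (0.077). The parts of depth and replicate variation in this were not separated. *UGT2B17* itself, whose counts include the transgene, was at 10.4 to 11.8 CPM in MEC1-CTRL and 20.1 to 22.7 CPM in MEC1-2B17, and at 26.2 to 29.8 CPM in JVM2-CTRL and 35.3 to 45.3 CPM in JVM2-2B17. All 6 B-cell markers examined were at 54.5 CPM or more in every library, and the 4 T-cell markers summed to 0.523 CPM at most in MEC1 and were not listed in JVM2. The monocyte markers summed to 1.34 CPM at most in MEC1 and 1.70 CPM in JVM2. The 3 NK-cell markers summed to 5.06 to 5.96 CPM in MEC1-CTRL, 4.06 to 4.63 CPM in MEC1-2B17 and 3.60 CPM at most in JVM2. Replicates of one arm differed by a mean chi-square per gene of 2.22 to 3.70, apart from pairs with MEC1-CTRL replicate 3 (6.74 and 8.44), pairs with JVM2-2B17 replicate 2 (8.23 and 8.39) and the pair of JVM2-CTRL replicates 1 and 2 (5.33). Values without MEC1-CTRL replicate 3 or JVM2-2B17 replicate 2 are given beside the counts and medians of each line.

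At the median, the transcripts of the members decreased by 25.4% from MEC1-CTRL to MEC1-2B17. CPM, the usual unit of read depth, here means the counts of a gene relative to its library's total after scaling by the trimmed mean of M values (TMM), and the log2 fold change is 2B17 over CTRL. Of the 60 members, 59 were listed in MEC1 and 58 held enough counts to be fitted, and 52 of these passed an adjusted *P* of 0.05 as lower and 1, *NANS*, as higher. Of all genes fitted in MEC1, 21.6% were lower and 20.0% higher at that threshold, and nothing is read from the members' count, since lower values in this contrast chose them. Their median log2 fold change was -0.42, a ratio of 0.746 with quartiles of 0.682 and 0.812, and the median of all 16581 genes was 0.0026. In bulk RNA, fewer cells with a transcript and less of it per cell cannot be told apart.

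The 3 MEC1-2B17 libraries were alike. Set against the mean of the MEC1-CTRL libraries, the median log2 ratio of the 58 members was -0.40, -0.44 and -0.43 in MEC1-2B17 replicates 1, 2 and 3, whereas the MEC1-CTRL replicates stood at 0.0008, 0.0005 and 0.0010. All 3 MEC1-2B17 values lay below all 3 MEC1-CTRL values for 51 members and above them for 1, where 25.9% and 24.3% of all genes were so placed. Without MEC1-CTRL replicate 3 the median was -0.42 and 50 members passed as lower.

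**Figure D1:**
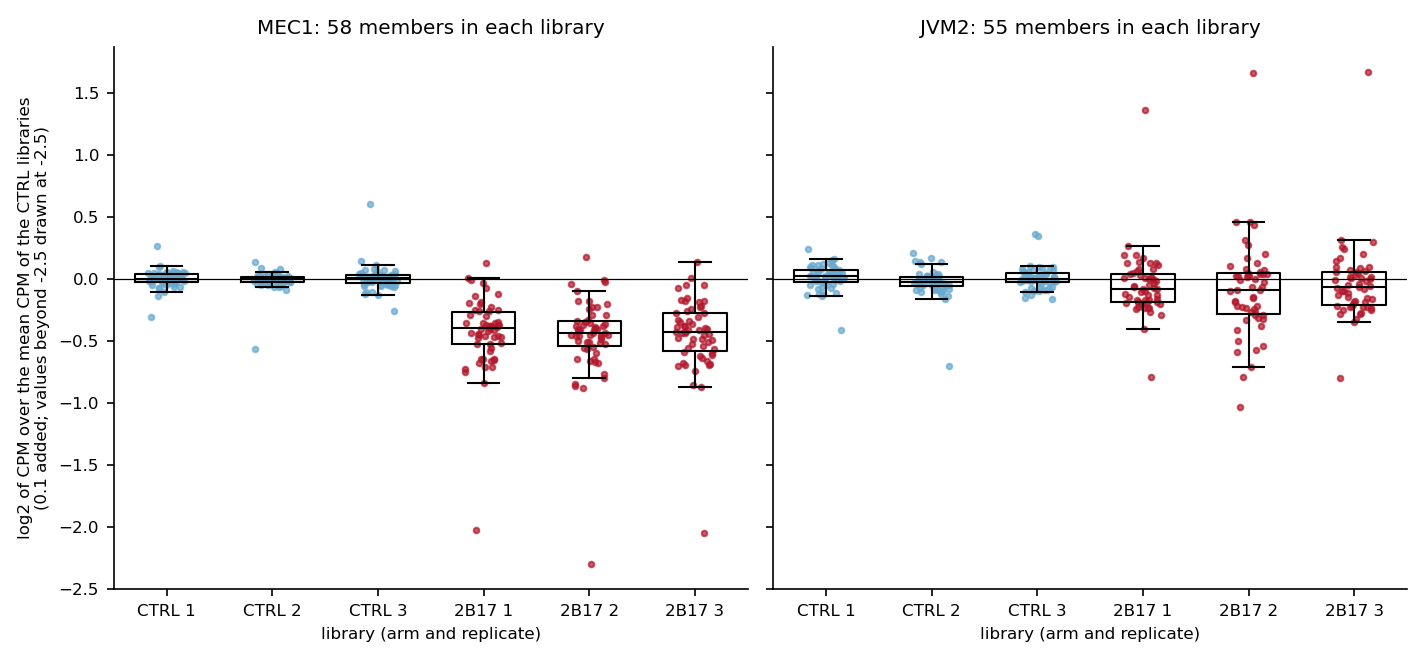
Log2 of CPM over the mean CPM of the CTRL libraries of the same line (vertical axis, 0.1 CPM added) for each member (points) in each library (horizontal axis), with boxes at the quartiles and whiskers to the last point within 1.5 box lengths. The boxes of the 3 MEC1-2B17 libraries lie below 0 with medians of -0.40 to -0.44, and those of the JVM2-2B17 libraries reach across 0 with medians of -0.065 to -0.088.

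The members differed among themselves in the size of their MEC1 values. The SD of their log2 fold changes was 0.33, and 0.20 without *KLF9*, in genes chosen for low values in this contrast, and 39 of 58 members lay within 0.2 of the median. There were 11 members more than 0.2 below it, among them *KLF9*, *GOLM1*, *RXRA*, *RMI1*, *CARD9* and *TGFBR1*, and 8 more than 0.2 above it, among them *NANS*, *SPTAN1*, *SURF1*, *SURF4*, *NUP214* and *XPA*. The other 413 long arm genes, which were not members, had a median of -0.38 and an SD of 0.58, from -3.62 to 3.40, with 285 lower and 13 higher. All 471 together had a median of -0.39, and 71.55% were lower. The members made up 58 of these 471 genes.

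Genes of the short arm of chromosome 9 were centred near 0 in MEC1. The 163 fitted there had a median of -0.030, with 37 lower and 37 higher. Among 41 chromosome arms with at least 50 genes fitted, 9q had the lowest median, and the next lowest was 13q at -0.052. Long arm genes took 3.481% ± 0.011 of the counts in MEC1-CTRL and 2.736% ± 0.0064 in MEC1-2B17 (SD, n = 3 each), with ranges of 3.470% to 3.492% and 2.729% to 2.741%. In JVM2 the same arm was number 23 of 41 from the lowest, with a median of 0.0049, and its genes took 2.219% ± 0.013 of the counts in CTRL and 2.254% ± 0.018 in 2B17. Shares of counts were also set side by side over the 12243 genes fitted in both lines, 351 of them on 9q, and came to 3.424% and 2.704% in MEC1-CTRL and MEC1-2B17 and to 2.256% and 2.280% in JVM2-CTRL and JVM2-2B17.

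**Figure D2:**
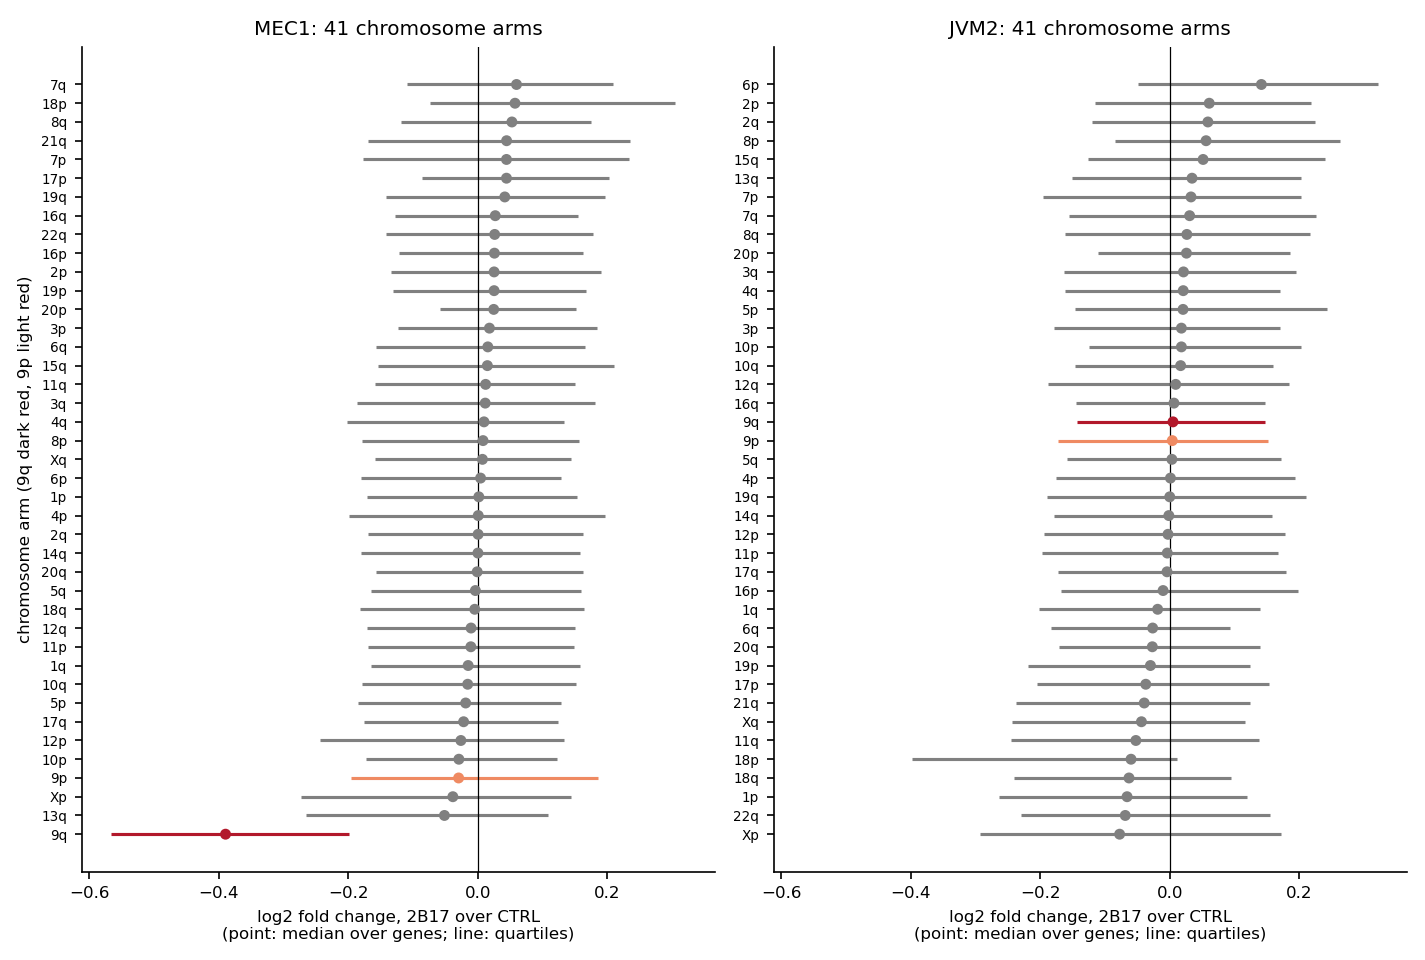
Median (points) and quartiles (lines) of the log2 fold change, 2B17 over CTRL, over the genes fitted on each of 41 chromosome arms, ordered by the median in MEC1 (left) and in JVM2 (right). The 9q arm, in dark red, stands apart at the bottom in MEC1 at -0.39 and lies among the others in JVM2 at 0.0049.

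Along the arm the shift was deepest from 70 to 90 Mb. Over all genes in windows of 10 Mb, the MEC1 median was -0.44 from 60 to 70 Mb (22 genes), -0.68 from 70 to 80 Mb (26 genes) and -0.62 from 80 to 90 Mb (27 genes). From 90 Mb to the end of the chromosome the 5 windows lay between -0.34 and -0.41. The window of 40 to 50 Mb next to the centromere on the short arm held 8 genes with a median of -0.30, 4 of them lower, and this window and that of 60 to 70 Mb hold duplicated families whose reads can be shared.

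The members were also lowest from 70 to 90 Mb, with window medians of -0.68 (3 members) and -0.68 (4 members). From 90 to 130 Mb their window medians lay between -0.48 and -0.44. Unlike the windows over all genes, theirs was nearest 0 at the far end, -0.30 from 130 to 140 Mb (16 members). The 29 members nearer the centromere had a median of -0.53 and the 29 farther out a median of -0.37. Across the 58 members the Spearman correlation of fold change with order was 0.45. With the mean log2 CPM it was 0.27. The points are genes measured in the same 6 libraries and are not independent replicates. In JVM2 the correlation with order was 0.0054 over 55 members, and the windows of the long arm had medians between -0.077 and 0.082.

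**Figure D3:**
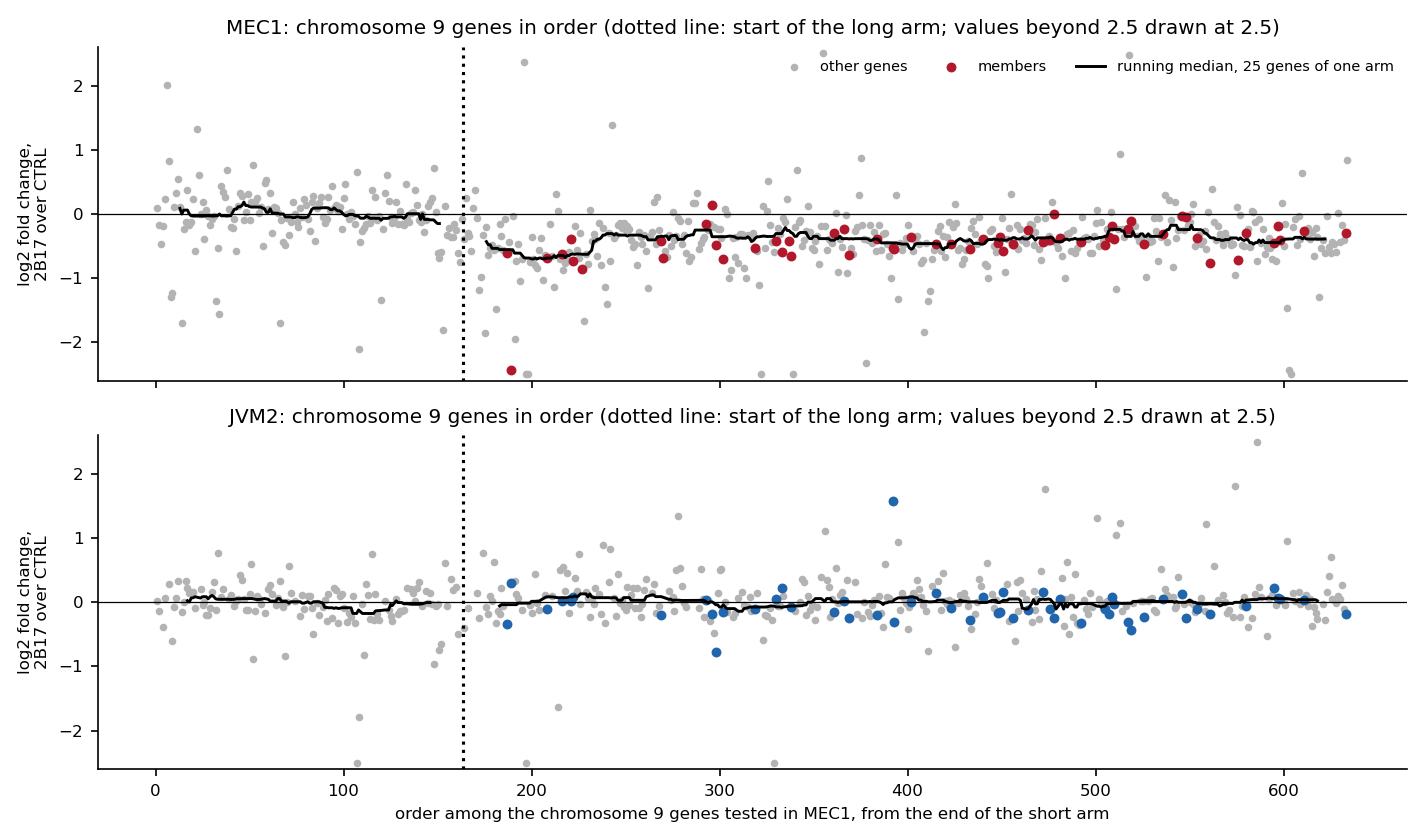
Log2 fold change, 2B17 over CTRL, of the genes of chromosome 9 in their order from the end of the short arm, in MEC1 (top) and JVM2 (bottom), with members in colour and a running median over 25 genes of one arm as a line. In MEC1 the line drops below 0 at the start of the long arm (dotted), to medians of -0.68 and -0.62 from 70 to 90 Mb, and stays below 0 to the end, whereas in JVM2 it stays near 0.

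In JVM2 the members' values lay slightly below 0 at the median. Of the 60 members, 57 were listed and 55 fitted, 10 passed as lower, 2 as higher and 43 did not pass. That is 18.18% lower and 3.636% higher, where 15.3% and 14.1% of all 13021 genes fitted in JVM2 were lower and higher (edgeR's quasi-likelihood test with Benjamini-Hochberg adjustment over all genes). The median log2 fold change was -0.10 against 0.0001 over all genes and 0.021 over the other 305 long arm genes. Set against the mean of JVM2-CTRL, the members' median log2 ratio was -0.082, -0.088 and -0.065 in JVM2-2B17 replicates 1, 2 and 3 and 0.019, -0.031 and -0.0057 in JVM2-CTRL. The 2B17 libraries all lay below CTRL for 19 of the 55 members (34.5%) and all above for 4 (7.27%), where 23.6% and 21.6% of all genes were so placed.

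Some of these calls were lost or gained when a single library was left out, which also leaves fewer libraries to test with. Leaving out JVM2-2B17 replicate 2 kept all 10 members called lower and gave 14 in all, with *CEP78*, *SMC2*, *PRPF4* and *NUP214* added, and it gave 4 called higher, of which *GSN* was also called with all libraries. Their median without it was -0.061. Without JVM2-CTRL replicate 1, and likewise without JVM2-CTRL replicate 3, 5 members were called lower. *SMC5*, *CORO2A*, *SPTAN1* and *ABL1* were called lower in each of the 6 fits that left out a library, and *GSN* was called higher in each.

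Of the 54 members fitted in both lines, 8 were lower in both, 2 were lower in MEC1 and higher in JVM2, and 38 were lower in MEC1 and did not pass in JVM2. Lower MEC1 values chose the members, so the number lower in both largely follows from the JVM2 calls, and nothing is read from it. Of the members fitted in JVM2, 18.18% were lower there, against 15.3% of all genes. The 8 were *SMC5*, *CORO2A*, *PSMD5*, *STOM*, *NUP188*, *ABL1*, *RAPGEF1* and *EHMT1*. Under DESeq2, *CORO2A* did not pass in MEC1, and *PSMD5* and *EHMT1* did not pass in JVM2. Across the 54 genes the Pearson correlation of the fold changes was -0.19, and -0.019 over the 52 left without *KLF9* and *GSN*. Whether the change of any member differed between the lines was not tested.

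**Figure D4:**
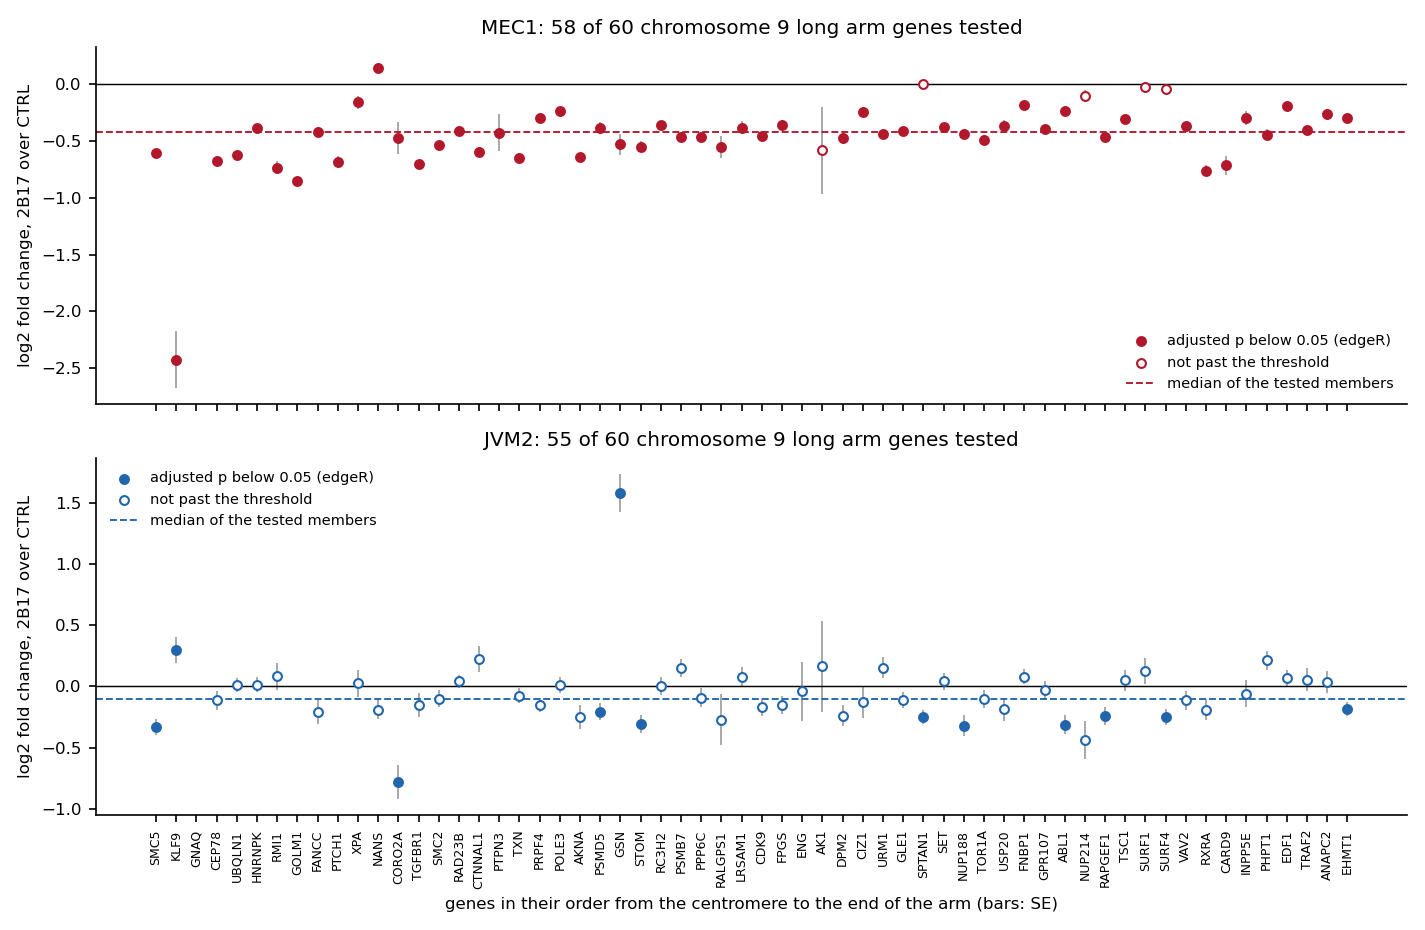
Log2 fold change, 2B17 over CTRL, of each member (vertical axis, bars are SE) in its order from the centromere to the end of the arm, in MEC1 (top, 58 fitted) and JVM2 (bottom, 55 fitted). Filled points are past an adjusted *P* of 0.05, dashed lines are the medians of -0.42 (MEC1) and -0.10 (JVM2), all MEC1 points but *NANS* lie below 0, *KLF9* lies far below the rest in MEC1, and *GSN* lies far above the rest in JVM2.

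Genome upkeep was among the largest groups of roles, with 8 members. All 8 were lower in MEC1, by log2 fold changes of -0.73 to -0.16, and 1 of 8, *SMC5*, was lower in JVM2. *SMC5*, the first member from the centromere, encodes the core ATPase of the SMC5/6 complex, which resolves joined DNA molecules. It was at 103, 102 and 102 CPM in the MEC1-CTRL libraries and 64.5, 72.0 and 64.7 CPM in the MEC1-2B17 libraries, a log2 fold change of -0.61 ± 0.041 (SE, as in all values that follow). In JVM2 it was at 104, 104 and 115 CPM in the JVM2-CTRL libraries and 81.1, 89.1 and 85.9 CPM in the JVM2-2B17 libraries, and it fell there too (-0.33 ± 0.066, adjusted *P* = 0.00225). The arms did not overlap in either line.

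*RMI1* stabilises the *BLM* helicase complex that undoes crossed DNA strands. It had one of the 4 lowest fold changes in MEC1, -0.73 ± 0.055, from 32.2, 33.3 and 30.9 CPM in the MEC1-CTRL libraries and 20.4, 18.4 and 19.1 CPM in the MEC1-2B17 libraries, with a gap between the arms. JVM2 gave 10.9, 12.2 and 12.6 CPM in the JVM2-CTRL libraries and 12.3, 12.8 and 12.7 CPM in the JVM2-2B17 libraries, which overlap (0.082 ± 0.11, adjusted *P* = 0.613). *FANCC*, a subunit of the Fanconi anaemia core complex that repairs crosslinked DNA, stood near the members' median at -0.42 ± 0.045, from 51.8, 49.6 and 48.9 CPM in the MEC1-CTRL libraries and 37.0, 37.6 and 37.9 CPM in the MEC1-2B17 libraries. Its JVM2 values of 21.9, 20.2 and 23.3 CPM in CTRL and 18.5, 20.4 and 17.9 CPM in 2B17 overlapped at 1 library (-0.21 ± 0.097, adjusted *P* = 0.133).

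*XPA*, the damage-verifying factor of nucleotide excision repair, was among the least lowered members. Its MEC1 levels were 19.5, 20.6 and 20.4 CPM in the MEC1-CTRL libraries and 18.5, 17.8 and 17.8 CPM in the MEC1-2B17 libraries, which do not overlap but lie close (-0.16 ± 0.056). This value passed in edgeR with all libraries, did not pass in DESeq2 (-0.16), and did not pass in edgeR when any library other than MEC1-CTRL replicate 1 and MEC1-2B17 replicate 1 was left out. JVM2 levels ran from 12.2 to 14 CPM in CTRL and from 12.3 to 14.1 CPM in 2B17. The remaining members of the group, *SMC2* (condensin), *RAD23B* (a partner of the repair factor *XPC*), *POLE3* (a subunit of DNA polymerase epsilon) and *CIZ1* (a replication factor), had MEC1 fold changes of -0.54, -0.41, -0.24 and -0.24.

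Receptors and membrane signalling had 5 members, of which 3 were fitted in each line. *PTCH1*, *TGFBR1* and *GPR107* were lower in MEC1, and none of *TGFBR1*, *ENG* and *GPR107* passed in JVM2. *PTCH1* is the receptor of hedgehog ligands and a tumour suppressor. It was at 37.4, 35.9 and 35.7 CPM in the MEC1-CTRL libraries and 23.1, 21.3 and 23.6 CPM in the MEC1-2B17 libraries, a log2 fold change of -0.68 ± 0.052, with every 2B17 library well under every CTRL library. JVM2 hardly held the transcript, with 3, 4 and 3 counts in CTRL and 10, 4 and 6 counts in 2B17, too few to be fitted.

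*TGFBR1*, the kinase chain of the receptor for transforming growth factor beta, was at 89.4, 89.5 and 90.7 CPM in the MEC1-CTRL libraries and 53.3, 56.2 and 56.2 CPM in the MEC1-2B17 libraries (-0.70 ± 0.038), a clear gap. In JVM2 it was at 27.3, 33.2 and 30.0 CPM in the JVM2-CTRL libraries and 25.4, 29.9 and 26.4 CPM in the JVM2-2B17 libraries, which overlap (-0.15 ± 0.098, adjusted *P* = 0.272). *ENG*, a co-receptor in the same pathway, was not listed in MEC1, and its JVM2 values of 6.08, 4.57 and 4.78 CPM in CTRL and 5.62, 2.93 and 6.34 CPM in 2B17 overlapped (-0.04 ± 0.24, adjusted *P* = 0.921). *GNAQ*, the alpha subunit of the Gq protein, was at 6, 7 and 13 counts in MEC1-CTRL and 7, 4 and 8 counts in MEC1-2B17, too few to be fitted, and was not listed in JVM2. *GPR107*, a membrane protein of the Golgi, had -0.40 in MEC1 and -0.027 in JVM2.

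Kinases, phosphatases and regulators of small GTPases made up 11 members. All 11 were lower in MEC1, from -0.55 (*RALGPS1*) to -0.18 (*FNBP1*), and 2 of the 10 fitted in JVM2, *ABL1* and *RAPGEF1*, were lower there. *ABL1*, the tyrosine kinase of the Philadelphia translocation, was at 152, 150 and 150 CPM in the MEC1-CTRL libraries and 131, 123 and 129 CPM in the MEC1-2B17 libraries (-0.24 ± 0.034), a smaller change than that of most members. JVM2 gave 88.1, 83.0 and 83.4 CPM in the JVM2-CTRL libraries and 71.9, 59.9 and 73.0 CPM in the JVM2-2B17 libraries, and the level fell in 2B17 (-0.31 ± 0.077, adjusted *P* = 0.00924), and -0.23 with an adjusted *P* = 0.00207 without 2B17 replicate 2, the lowest library. The arms were apart in both lines.

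*RAPGEF1* encodes an exchange factor of the GTPase Rap1. It was at 324, 312 and 298 CPM in the MEC1-CTRL libraries and 227, 218 and 231 CPM in the MEC1-2B17 libraries (-0.47 ± 0.039). JVM2 levels were 149, 147 and 149 CPM in CTRL and 132, 111 and 134 CPM in 2B17, again with replicate 2 of 2B17 lowest (-0.24 ± 0.073, adjusted *P* = 0.0279, and -0.15, adjusted *P* = 0.0306, without that library). The call was lost when any of the JVM2-CTRL libraries was left out, with adjusted *P* up to 0.0989. *VAV2*, an exchange factor downstream of antigen receptors, was at 95.7, 90.2 and 95.7 CPM in the MEC1-CTRL libraries and 71.0, 71.6 and 75.7 CPM in the MEC1-2B17 libraries (-0.37 ± 0.039), and its JVM2 arms overlapped (-0.11 ± 0.075, adjusted *P* = 0.283).

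*CDK9* is the kinase that releases paused RNA polymerase II. Its levels were 66.9, 65.8 and 64.6 CPM in the MEC1-CTRL libraries and 47.8, 47.7 and 48.0 CPM in the MEC1-2B17 libraries, tight within each arm and apart between them (-0.46 ± 0.04). In JVM2, 52.6, 51.8 and 51.3 CPM in CTRL lay above 46.0, 43.9 and 48.3 CPM in 2B17 without passing the threshold (-0.17 ± 0.068, adjusted *P* = 0.077). *TSC1*, the tumour suppressor that restrains mTORC1 together with *TSC2*, was at 72.0, 69.3 and 68.9 CPM in the MEC1-CTRL libraries and 53.9, 57.3 and 58.4 CPM in the MEC1-2B17 libraries (-0.31 ± 0.042). Its JVM2 arms overlapped, at 49.2, 44.4 and 42.5 CPM in the JVM2-CTRL libraries and 45.8, 43.3 and 52.0 CPM in the JVM2-2B17 libraries (0.051 ± 0.087, adjusted *P* = 0.696). The phosphatase genes *PPP6C*, *PTPN3*, *INPP5E* and *PHPT1* had MEC1 values of -0.47, -0.43, -0.30 and -0.45. *PTPN3*, at 1.64 to 2.99 CPM, was the only member called lower in MEC1 whose arms overlapped.

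The 6 immune adaptors and transcription factors held the member that departed furthest from the rest. All 6 were lower in MEC1, and in JVM2 1 of the 5 fitted, *KLF9*, was higher and none was lower. *KLF9* is a zinc-finger transcription factor that binds GC boxes and is induced by glucocorticoid and thyroid hormones. In MEC1 it was scarce, at 81, 58 and 48 counts in CTRL and 12, 9 and 11 counts in 2B17 (2.13, 1.69 and 1.45 CPM and 0.355, 0.276 and 0.347 CPM). Its log2 fold change of -2.42 ± 0.25, a 5.36-fold lower level, was far outside the range of the others, of which *GOLM1* was lowest at -0.86. JVM2 held more of it, 15.6, 14.5 and 16.2 CPM in the JVM2-CTRL libraries and 17.6, 21.2 and 18.4 CPM in the JVM2-2B17 libraries, with all 2B17 values above CTRL (0.30 ± 0.11, adjusted *P* = 0.0496). This call was at the threshold: it held in 1 of the 6 fits that left out a library and was lost under DESeq2 (adjusted *P* = 0.157) and other settings, and the value without replicate 2 of JVM2-2B17 was 0.22 (adjusted *P* = 0.125).

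*RXRA*, the retinoid X receptor that pairs with many nuclear receptors, was at 82.2, 85.7 and 87.6 CPM in the MEC1-CTRL libraries and 51.9, 46.1 and 52.7 CPM in the MEC1-2B17 libraries, the third lowest fold change (-0.76 ± 0.048). JVM2 gave 45.2, 43.8 and 40.3 CPM in the JVM2-CTRL libraries and 37.3, 34.3 and 41.9 CPM in the JVM2-2B17 libraries, which overlap at 1 library (-0.19 ± 0.087, adjusted *P* = 0.118). *TRAF2* carries signals of the tumour necrosis factor receptor family to NF-kappaB. It was at 69.1, 65.8 and 68.6 CPM in the MEC1-CTRL libraries and 52.2, 49.5 and 51.9 CPM in the MEC1-2B17 libraries (-0.41 ± 0.042), close to the members' median, and its JVM2 arms overlapped (0.054 ± 0.095, adjusted *P* = 0.711). *CARD9*, an adaptor that acts through *BCL10* and *MALT1*, was at 10.9, 10.5 and 11.2 CPM in the MEC1-CTRL libraries and 6.52, 5.91 and 7.41 CPM in the MEC1-2B17 libraries (-0.72 ± 0.087), but 51.6% of its exonic bases lie under another annotated gene on the same strand, and JVM2 held only 1 to 5 counts per library. *AKNA* and *EDF1*, regulators of transcription, had MEC1 values of -0.65 and -0.19.

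Chromatin, RNA and nuclear pore genes came to 8, with 7 lower in MEC1 and 2, *NUP188* and *EHMT1*, lower in JVM2. *SET*, a histone chaperone and inhibitor of protein phosphatase 2A, was the most abundant member by CPM, at 1400, 1420 and 1460 CPM in the MEC1-CTRL libraries and 1100, 1130 and 1070 CPM in the MEC1-2B17 libraries (-0.37 ± 0.029). *HNRNPK*, an RNA-binding protein deleted in some leukaemias, was at 844, 850 and 881 CPM in the MEC1-CTRL libraries and 670, 667 and 631 CPM in the MEC1-2B17 libraries (-0.39 ± 0.033). Both were reduced by about the same proportion in MEC1, and in JVM2 both had overlapping arms (0.041 ± 0.07, adjusted *P* = 0.699, and 0.016 ± 0.058, adjusted *P* = 0.868). Reads of either gene can also match processed copies elsewhere in the genome.

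The nuclear pore is represented by *NUP188*, a scaffold nucleoporin gene, and by the fusion gene *NUP214*. In MEC1 *NUP188* was at 154, 148 and 162 CPM in the MEC1-CTRL libraries and 112, 113 and 118 CPM in the MEC1-2B17 libraries (-0.44 ± 0.037), with a clear gap, and *NUP214* at 55.5, 58.0 and 65.8 CPM in the MEC1-CTRL libraries and 54.3, 55.9 and 56.8 CPM in the MEC1-2B17 libraries (-0.10 ± 0.053), which overlap. The *NUP214* value in MEC1 did not pass, but it was -0.16 and passed without CTRL replicate 1, and was -0.029 without CTRL replicate 3. In JVM2 both were lower in all 2B17 libraries and lowest in replicate 2, at 93.1, 71.4 and 93.3 CPM against 106, 109 and 107 CPM in CTRL for *NUP188* and 53.5, 29.9 and 51.6 CPM against 59.6, 60.5 and 64.0 CPM for *NUP214*. The *NUP188* value was -0.32 ± 0.09 (adjusted *P* = 0.0181), and -0.20 (adjusted *P* = 0.00302) without replicate 2, and the call was lost without any of the JVM2-CTRL libraries (adjusted *P* up to 0.069). *NUP214* had -0.44 ± 0.16 and did not pass (adjusted *P* = 0.0511), but without replicate 2 it was -0.22 and passed (adjusted *P* = 0.0074).

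*EHMT1*, a methyltransferase of histone H3 lysine 9 and the last member of the arm, was at 185, 188 and 187 CPM in the MEC1-CTRL libraries and 157, 146 and 154 CPM in the MEC1-2B17 libraries (-0.30 ± 0.036). JVM2 levels were 126, 129 and 129 CPM and 109, 115 and 115 CPM, a lower level in every 2B17 library (-0.18 ± 0.057, adjusted *P* = 0.0305), though the call held in only 1 of the 6 fits without a library (adjusted *P* up to 0.125). *PRPF4* (splicing), *RC3H2* (mRNA decay) and *GLE1* (mRNA export) had MEC1 values of -0.30, -0.36 and -0.41.

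The 7 members of protein turnover were all lower in MEC1, between -0.62 (*UBQLN1*, a shuttle to the proteasome) and -0.26 (*ANAPC2*). One, *PSMD5*, an assembly chaperone of the proteasome cap, was lower in JVM2. It was at 49.4, 44.7 and 49.1 CPM in the MEC1-CTRL libraries and 38.7, 36.8 and 34.1 CPM in the MEC1-2B17 libraries (-0.38 ± 0.054), and in JVM2 at 54.4, 49.5 and 54.8 CPM in the JVM2-CTRL libraries and 46.4, 46.6 and 44.5 CPM in the JVM2-2B17 libraries (-0.21 ± 0.07, adjusted *P* = 0.044). The arms were apart in both lines, but the JVM2 call held in 2 of the 6 fits that left out a library (adjusted *P* up to 0.173). *ANAPC2*, the cullin of the anaphase-promoting complex, was at 49.9, 51.5 and 52.2 CPM in the MEC1-CTRL libraries and 42.9, 40.1 and 44.9 CPM in the MEC1-2B17 libraries (-0.26 ± 0.048), with overlap in JVM2 (0.037 ± 0.092, adjusted *P* = 0.799).

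*PSMB7*, a catalytic subunit of the proteasome, had values of opposite sign in the lines and did not pass in JVM2. It was at 163, 164 and 164 CPM in the MEC1-CTRL libraries and 122, 119 and 116 CPM in the MEC1-2B17 libraries (-0.46 ± 0.033). All JVM2-2B17 values, 129, 153 and 129 CPM, lay above those of JVM2-CTRL, 128, 120 and 122 CPM (0.15 ± 0.073, adjusted *P* = 0.144). *USP20* (a deubiquitinase), *LRSAM1* (a ubiquitin ligase) and *URM1* (a ubiquitin-like modifier) had MEC1 values of -0.37, -0.38 and -0.44.

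Of the 6 genes of cytoskeleton and cilium, 5 were lower in MEC1, and in JVM2 3 were lower and 1 higher. Of all genes fitted in JVM2, 15.3% were lower and 14.1% higher, and nothing is read from the count in so small a group. *GSN* encodes gelsolin, which severs and caps actin filaments. In MEC1 it was lower, 8.47, 8.08 and 7.26 CPM in the MEC1-CTRL libraries and 5.48, 5.54 and 5.49 CPM in the MEC1-2B17 libraries (-0.53 ± 0.09), like its neighbours on the arm. In JVM2 it rose, from 3.59, 4.20 and 3.61 CPM to 9.88, 12.2 and 12.3 CPM, 2.98-fold (1.58 ± 0.15, adjusted *P* = 9.43e-06), and this was the largest change of a member in that line. *STOM*, the membrane protein stomatin, is encoded next to *GSN* and went the other way in JVM2 (-0.31 ± 0.074, adjusted *P* = 0.00732), a call lost only without JVM2-CTRL replicate 3 (adjusted *P* = 0.0532). Its MEC1 value was -0.55 ± 0.046.

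*CORO2A*, a coronin of the actin cytoskeleton, was lower in both lines in edgeR, and DESeq2 did not call it in MEC1 (-0.47). It was at 2.74, 2.73 and 2.44 CPM in the MEC1-CTRL libraries and 1.81, 1.96 and 1.92 CPM in the MEC1-2B17 libraries (-0.48 ± 0.14) and at 9.27, 7.93 and 9.02 CPM in the JVM2-CTRL libraries and 4.99, 5.29 and 4.98 CPM in the JVM2-2B17 libraries (-0.78 ± 0.14, adjusted *P* = 0.00122). These are low levels with no overlap between arms, and the JVM2 fold change was the lowest of any member there. *SPTAN1*, the alpha chain of the spectrin that underlies the plasma membrane, was level in the MEC1 fit, at 472, 464 and 442 CPM in the MEC1-CTRL libraries and 461, 455 and 460 CPM in the MEC1-2B17 libraries (-0.0032 ± 0.034), and the MEC1 arms overlapped. In JVM2 it fell, from 316, 305 and 314 CPM to 273, 247 and 266 CPM (-0.25 ± 0.056, adjusted *P* = 0.00546). *CTNNAL1*, related to the catenins, and *CEP78* of the centrosome had MEC1 values of -0.60 and -0.68.

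Metabolism, redox and the secretory pathway were the most mixed group, with 5 lower, 1 higher and 3 past neither threshold of the 9 fitted in MEC1, and 1 of 8, *SURF4*, lower in JVM2. *NANS*, which makes sialic acid, was the one member above 0 in MEC1, at 65.4, 65.9 and 69.9 CPM in the MEC1-CTRL libraries and 73.1, 75.6 and 73.6 CPM in the MEC1-2B17 libraries (0.14 ± 0.039), with all 2B17 values above CTRL. In JVM2 all 2B17 values of *NANS* lay below CTRL, 44.6, 39.4 and 38.1 CPM against 46.1, 46.3 and 47.2 CPM, without passing (-0.19 ± 0.077, adjusted *P* = 0.0848).

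*GOLM1*, a Golgi membrane protein, had the second lowest fold change in MEC1, -0.86 ± 0.041, from 70.9, 70.1 and 68.1 CPM in the MEC1-CTRL libraries and 38.8, 38.7 and 38.1 CPM in the MEC1-2B17 libraries, and was not listed in JVM2. *SURF1*, which helps assemble cytochrome c oxidase, and *SURF4*, a receptor that loads cargo for secretion, are close neighbours near the end of the arm. Neither was reduced in MEC1, *SURF1* at 41.1, 41.7 and 39.4 CPM in the MEC1-CTRL libraries and 40.5, 39.9 and 39.4 CPM in the MEC1-2B17 libraries (-0.029 ± 0.045) and *SURF4* at 272, 285 and 296 CPM in the MEC1-CTRL libraries and 278, 276 and 275 CPM in the MEC1-2B17 libraries (-0.042 ± 0.037), and the arms of both overlapped. In JVM2 *SURF1* overlapped between arms (0.13 ± 0.11, adjusted *P* = 0.412), and *SURF4* fell from 291, 278 and 278 CPM to 252, 217 and 242 CPM (-0.25 ± 0.064, adjusted *P* = 0.011), a call lost only without JVM2-CTRL replicate 1 (0.0501).

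The other genes of this group were *TXN* (thioredoxin), *FPGS* (which retains folates in the cell), *DPM2* (a subunit for mannose donors), *TOR1A* (an ATPase of the endoplasmic reticulum) and *AK1* (adenylate kinase). *TXN*, *FPGS*, *DPM2* and *TOR1A* had MEC1 values of -0.65, -0.36, -0.48 and -0.49. *AK1* did not pass, at 14, 10 and 26 counts in MEC1-CTRL and 13, 11 and 7 counts in MEC1-2B17, and the value -0.58 ± 0.38 has the widest error of the members. It also shares 34.5% of its exonic bases with a readthrough gene on the same strand.

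Levels of the members spanned a wide range. Per kilobase of exon, MEC1-CTRL held the most of *TXN* (346 CPM per kb), *SET* (240.3) and *EDF1* (184.8), and the least of *GNAQ* (0.036), *AK1* (0.185) and *PTPN3* (0.272). JVM2-CTRL held the most of *EDF1* (170.3), *HNRNPK* (167.0) and *TXN* (165.9). Besides *CARD9* and *AK1*, *PHPT1*, *GLE1* and *CIZ1* have over 10% of their exonic bases under another annotated gene (31.7%, 15.9% and 10.9%), and whether the counting used strand is not stated, so the reads of overlapping genes may be shared. Without these 5 members 48 passed as lower in MEC1, with a median of -0.42.

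Many members act in complexes whose other subunits are encoded elsewhere in the genome. For 23 members, 90 such partner genes on other chromosomes were listed and all were fitted in MEC1. The partners had a median of -0.0096, with 20 lower and 12 higher, and the 23 members had a median of -0.44, with 22 lower and none higher. Of all genes fitted in MEC1, 21.6% were lower and 20.0% higher. In JVM2 the 88 partners fitted had a median of 0.020, with 7 lower and 10 higher, and the 21 members fitted had -0.10, with 3 lower. Of all genes fitted in JVM2, 15.3% were lower and 14.1% higher. Within MEC1, 20 of the 23 members had a lower fold change than each of their listed partners, and the exceptions were *XPA*, *ANAPC2* and *TGFBR1*. The members were chosen for low values in this contrast and the partners were not, so no test was made of this difference.

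Single partners passed the threshold, as did 41.7% of all genes in MEC1 and 29.3% in JVM2. *TSC2*, which pairs with *TSC1*, was higher in MEC1 (0.34 ± 0.048) and *TBC1D7*, the third subunit of that complex, was higher in JVM2 (0.50 ± 0.085, adjusted *P* = 0.000823). Of the SMC5/6 complex, *NSMCE3* (listed as *NDNL2*) was lower in MEC1 (-0.45 ± 0.048) and higher in JVM2 (0.23 ± 0.055, adjusted *P* = 0.0083). *SMC6*, which pairs with *SMC5*, was lower in MEC1 (-0.26 ± 0.038) and did not pass in JVM2 (-0.049 ± 0.068, adjusted *P* = 0.631), and *NSMCE1* was higher in both lines (0.25 ± 0.041 in MEC1, and 0.27 ± 0.084 in JVM2, adjusted *P* = 0.0298). *RMI2*, which binds *RMI1*, was lower in MEC1 (-0.19 ± 0.056) and higher in JVM2 (0.42 ± 0.11, adjusted *P* = 0.00924). *FANCE* of the Fanconi core was higher in MEC1 (0.23 ± 0.052), and *FANCA* was lower in JVM2 (-0.38 ± 0.08, adjusted *P* = 0.0039).

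In MEC1 the lowest and the highest values of the 90 partners belonged to *TGFBR2* and *SMAD3*. *TGFBR2*, the chain that activates *TGFBR1*, was at -2.70 ± 0.15 in MEC1 and was not listed in JVM2, and *SMAD3*, which *TGFBR1* phosphorylates, was higher in both lines (1.05 ± 0.07 in MEC1, and 0.31 ± 0.082 in JVM2, adjusted *P* = 0.0135). *SMO*, the protein that *PTCH1* holds inactive, was also higher in both (0.67 ± 0.091 in MEC1, and 1.06 ± 0.19 in JVM2, adjusted *P* = 0.00115). The lowest partner in JVM2 was *ANKRD52*, a regulatory subunit of the *PPP6C* phosphatase (-0.77 ± 0.15, adjusted *P* = 0.00201), which was also lower in MEC1 (-0.34 ± 0.068). *BIRC3*, a ligase that acts with *TRAF2*, was higher in both lines (0.12 ± 0.036 and 0.38 ± 0.08, adjusted *P* = 0.0034). Of the 13 other core subunits of the proteasome, *PSMA6* was lower (-0.19 ± 0.048) and *PSMA5* higher (0.14 ± 0.035) in MEC1, and *PSMB2* was lower in JVM2 (-0.30 ± 0.056, adjusted *P* = 0.00178).

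**Figure D5:**
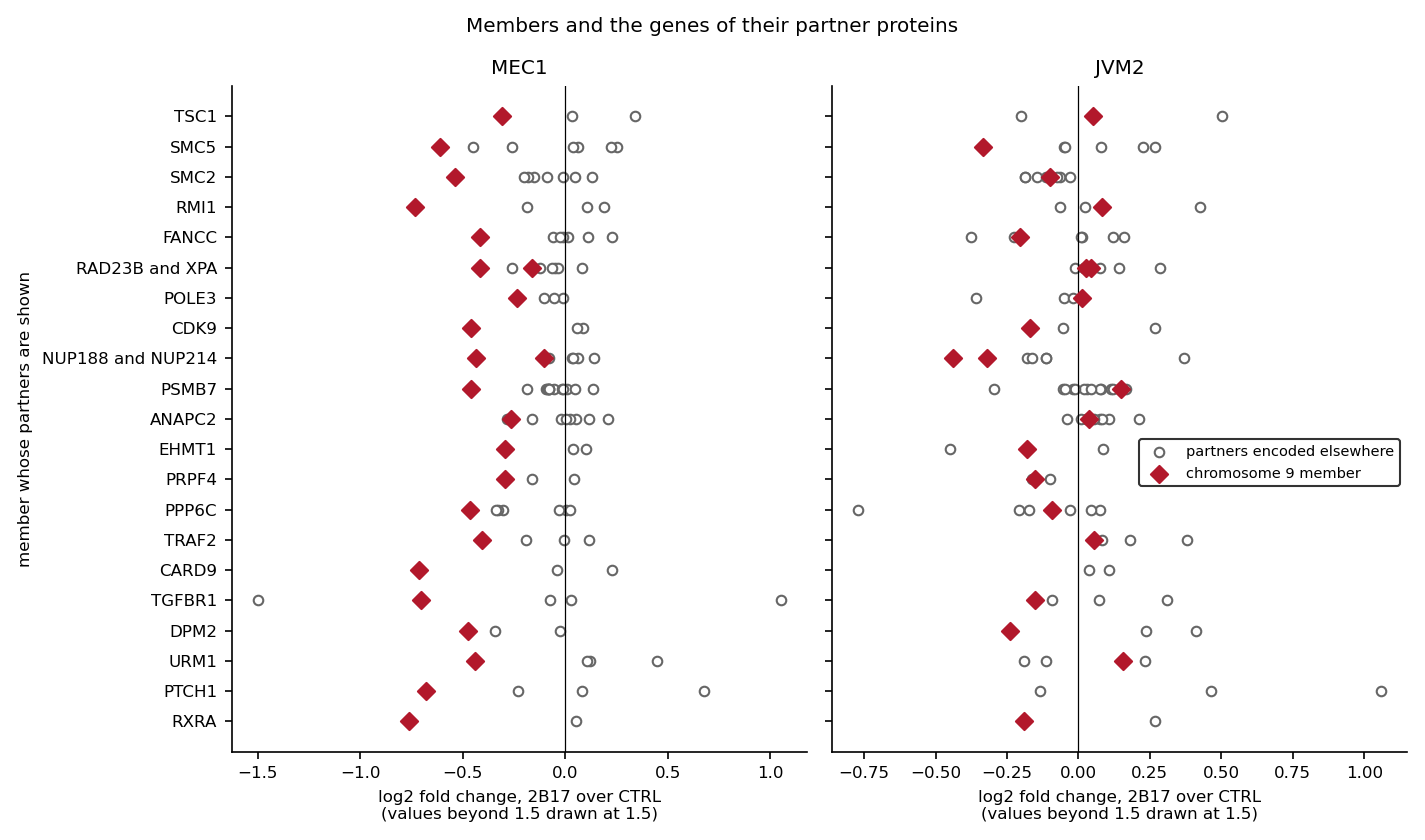
Log2 fold change, 2B17 over CTRL, of members (red diamonds) and of the genes of their partner proteins on other chromosomes (open circles), 1 row per member or pair of members, in MEC1 (left) and JVM2 (right), with values beyond 1.5 drawn at 1.5. In MEC1 the diamonds have a median of -0.44 and the circles lie around 0, at a median of -0.0096, with *TGFBR2* and *SMAD3* far out, and in JVM2 diamonds and circles mix, with medians of -0.10 and 0.020.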

How the data were processed

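Total RNA of MEC1 and JVM2 cells, each as CTRL and 2B17 populations, was sequenced after depletion of ribosomal RNA, with 3 biological replicates each, and samples were grouped by their labels. Per the submitters' processing notes, reads were trimmed with Trimmomatic, aligned to hg38 with TopHat2 2.0.14 and counted with HTSeq. The authors deposited raw read counts per Ensembl gene in 1 table per line, and every listed gene had at least 10 counts over the 6 libraries. The tables also hold fold changes, mean log2 CPM and P-values of edgeR and DESeq2, and 12 columns of rounded normalized values, none of which were used.

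Each line was fitted alone in R 4.3.3 with edgeR 4.0.16 (filterByExpr at its minimum count of 10 and total of 15, TMM scaling, quasi-likelihood F-test), 2B17 against CTRL, with Benjamini-Hochberg adjustment over 16581 genes in MEC1 and 13021 in JVM2 and a threshold of 0.05. The script was tested on simulated data. Standard errors were derived from the F statistic. Positions and exon lengths were taken from GENCODE 44, with the long arm from 60 Mb on and the short arm up to 45 Mb, and promoters from RefSeq. Scripts were run in Python 3.11.15.

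The members, the role, partner and marker lists and the rule for named genes were chosen with earlier results of these data known. Values in every library are given for tumour suppressor, signalling and fusion genes, for the 4 lowest and 4 highest members in MEC1, for those past the threshold with the 4 lowest and 4 highest values in JVM2, and for the ends of the arm. *STOM*, *PSMB7*, *CEP78*, *SMC2* and *PRPF4* were singled out in the JVM2 results after their values were seen. Alternatives were RLE factors, library size only, TMM factors from genes off chromosome 9, DESeq2 1.42.0, no filter, at least 10 counts in every library, a replicate block, each library left out in turn and, added after seeing the data, no members with over 10% of their exonic bases under another gene.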

Additional observations from a re-analysis of the deposited data

Results flagged for a closer look

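In 5 members every MEC1-2B17 library lay on one side of MEC1-CTRL and every JVM2-2B17 library on the opposite side of JVM2-CTRL. Over all genes, 25.9% lay wholly below and 24.3% wholly above CTRL in MEC1, and 23.6% and 21.6% in JVM2. How many of all genes lay on opposite sides in the lines was not counted, so nothing is read from the number of members. *GSN* had a log2 fold change of 1.58 in JVM2 and -0.53 in MEC1. *KLF9* had 0.30 in JVM2 and -2.42 in MEC1, *PSMB7* had 0.15 and -0.46, and *PHPT1*, which shares exonic bases with an antisense gene, had 0.22 and -0.45. *NANS* had -0.19 in JVM2 and 0.14 in MEC1, the only one of the 5 that was higher in MEC1. The difference between the lines was not tested for any of them, and of the JVM2 values only those of *GSN* and *KLF9* passed the threshold.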

How the results depend on the processing

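Of 132 alternative values of the counts and medians that answer the comparisons, 120 kept their direction and were counted as close in size. Most of the 132 are MEC1 values, from the comparison that chose the members. Partner genes lower in MEC1 ranged from 17 to 25 over the alternatives, against 20, and those higher from 10 to 15, against 12. The number of members higher in JVM2 was 2 in the report and 1 under library size only, DESeq2, no filter, at least 10 counts in every library and the replicate block, since *KLF9* was lost, and between 1 and 4 with a library left out. With a library left out, the members lower in JVM2 numbered between 5 and 14, against 10, and their median lay between -0.12 and -0.061, against -0.10. MEC1 counts of members lower ranged from 48 to 53 and their median from -0.43 to -0.40 over the alternatives.

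Values that changed sign did so only with a library left out. They ranged from -0.031 to 0.015 for *SPTAN1* in MEC1, and in JVM2 from -0.23 to 0.21 for *ENG*, from -0.038 to 0.087 for *XPA*, from -0.041 to 0.055 for *HNRNPK*, from -0.014 to 0.12 for *TRAF2*, from -0.011 to 0.097 for *ANAPC2*, from -0.044 to 0.088 for *SET* and from -0.023 to 0.12 for *TSC1*. None of these members passed in that line. Of the alternative values of single named members, 35 lost the threshold, 9 gained it and 15 changed sign. The other 668 kept their sign and their side of the threshold, whether past it or not.

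The labels do not say whether same-numbered replicates belong together. Their deviations from the arm means correlated by -0.090 to 0.068 in MEC1 and by -0.013 to 0.136 in JVM2. Between different numbers the range was -0.092 to 0.145 in MEC1 and -0.144 to 0.084 in JVM2. In JVM2 the same-numbered pairs 1 and 2 were highest, at 0.108 and 0.136, and a shared batch was not tested. A replicate block called 6897 MEC1 genes (6909 with no block) and 4236 JVM2 genes (3821 with no block), and DESeq2 called 5675 and 2848. Under the block 52 members were lower and 1 higher in MEC1, and 13 were lower and 1 higher in JVM2. The scalings moved the median of all genes to between -0.0076 and 0.0056. In JVM2, a change of -0.10 in a single member, the size of the members' median, was close to the median SE of 0.077. That SE is of a single member and does not measure the spread of the median itself.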
